A study of Mus musculus with 6 samples.

Results

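Proteins of the basement membrane are encoded by the 10 genes examined here in mouse astrocytes: the nidogens Nid1 and Nid2, the laminin chains Lama1, Lama2, Lama4, Lama5, Lamb1, Lamb2 and Lamc1, and Hspg2, which encodes perlecan. They are 10 of the 23282 gene rows that were counted, and each was found by its symbol, which the files write in capitals (NID1, NID2, LAMA1, LAMA2, LAMA4, LAMA5, LAMB1, LAMB2, LAMC1 and HSPG2). The cells were an Ink4a -/- murine astrocyte line, which lacks the tumor suppressor locus Ink4a/Arf, in which 3 control libraries came from cells transfected with empty pcDNA3.1-puro and 3 JAG1-overexpressing libraries from cells given pcDNA3.1-JAG1-puro. Ink4a loss was thus common to both groups, although the labels give the genotype of the control libraries as WT, read here as without JAG1. The cells were grown in medium with fetal bovine serum. Whether a group was a single clone or a pool of transfected cells, and whether its libraries came from separate cultures, is not given in the sources used here, so that the spread between libraries may be technical. The genes were chosen by name with the measured differences in read counts between control and JAG1-overexpressing libraries already known. The differences of these 10 genes are therefore given as descriptions, with no test. In bulk RNA, fewer cells of a type and less RNA per cell cannot be told apart.

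The basement membrane is a thin sheet of matrix under epithelia and around vessels, muscle and nerve. Laminins, each a trimer of an α, a β and a γ chain, assemble into a network on the cell surface by binding integrins and dystroglycan, and type IV collagen forms a second network. Nidogens bind the laminin γ1 chain as well as type IV collagen and perlecan, and so bridge the networks. In the brain, basement membranes lie around vessels and beneath the astrocyte endfeet at the brain surface. Astrocytes are known as a source of the laminin α1 and α2 chains, and endothelial cells of the α4 and α5 chains.

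The libraries held between 14341634 and 20489062 reads counted on genes. QuantSeq reads come from the 3' end of each polyadenylated transcript, so that the number of reads does not rise with transcript length, and levels are given as reads per 1000000 normalized reads (CPM) without division by length. A count of 3, the limit that 0 reads allows, corresponds to 0.148 to 0.206 CPM, and this limit covers counting error only. The targeted gene Jag1 had 8.99, 10.8 and 11.2 CPM in the control libraries and 15.2, 13.6 and 13.8 CPM in the JAG1-overexpressing libraries, a log2 fold change of 0.46 (standard error, SE, 0.11), and passed the quasi-likelihood test of edgeR (adjusted p = 0.00446). Reads counted by gene do not show whether they came from the plasmid. Of 10 astrocyte markers, Gfap and Aqp4 had 0 reads in all 6 libraries and Slc1a2 and Slc1a3 had at most 2 reads in a library, while Sox9 (181 ± 4.64 CPM, SD, n = 3) and Gja1 (151 ± 35.8 CPM, SD, n = 3) were well detected in control cells. All 6 astrocyte markers that were tested were lower in JAG1-overexpressing cells, as were 27.7% of all tested genes. The summed level of the list went from between 337 and 398 CPM to between 123 and 137 CPM. Much of that fall was in Sox9, which had 18.0 ± 1.25 CPM (SD, n = 3) in JAG1-overexpressing cells.

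Enough reads to pass the filter on low counts were found for 7 members (Nid1, Nid2, Lama5, Lamb1, Lamb2, Lamc1 and Hspg2), and the other 3 did not pass it. Of these 7 genes, 4 were higher and 1 was lower at an adjusted p under 0.05 in the fit of all genes, in which 55.1% of the 11712 tested genes passed, 27.4% as higher and 27.7% as lower. The groups did not overlap for the same 5 genes, as for 62.0% of all tested genes (31.1% with JAG1-overexpressing libraries higher and 30.9% with them lower). As this contrast was known when the genes were chosen, nothing is read from these counts. The 10 genes lie on 9 chromosomes. In RefSeq on GRCm38.p6, Nid1 spans chr13:13437602-13512275, Nid2 chr14:19751257-19811787 and Lama5 chr2:180176373-180225904. Lamb1 spans chr12:31265146-31329644, Lamb2 chr9:108479847-108490530, Lamc1 chr1:153218922-153332786 and Hspg2 chr4:137468751-137570630.

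**Figure D1:**
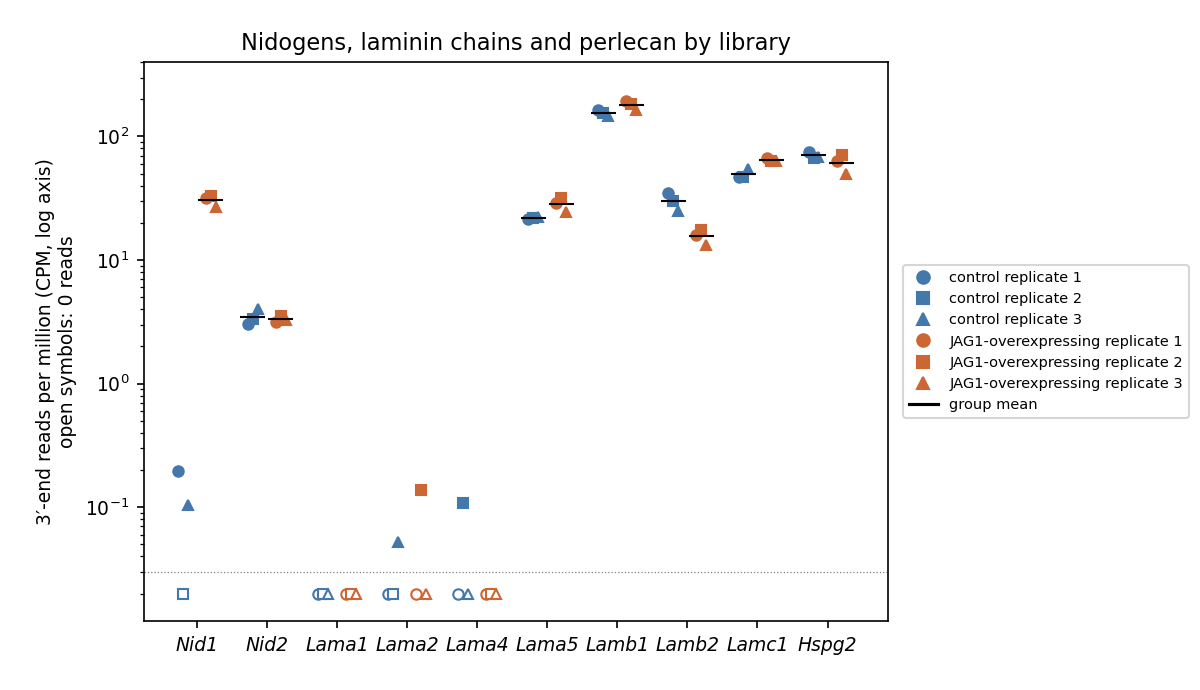
Level of each of the 10 genes in each library, as 3'-end CPM on a log axis; symbols are libraries, blue for control and orange for JAG1-overexpressing cells, open symbols below the dotted line are libraries with 0 reads, and black bars are means of groups with reads in all 3 libraries. Nid1 lies at 0.198 CPM or less in control and at 26.7 CPM or more in JAG1-overexpressing cells, while Nid2 stays between 3.06 and 4.03 CPM in all 6 libraries.

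Nid1, which encodes nidogen-1 (entactin), the major nidogen of most basement membranes, was nearly silent in control astrocytes and abundant in JAG1-overexpressing astrocytes. It had 4, 0 and 2 reads in the control libraries and 638, 483 and 439 reads in the JAG1-overexpressing libraries. On the CPM scale the levels were 0.198, 0 and 0.105 in control and 31.8, 33.2 and 26.7 in JAG1-overexpressing cells. The groups lay far apart, and the variation among the JAG1-overexpressing libraries was small beside that gap. The summed normalized level was 295 times as high in JAG1-overexpressing cells, with an exact 95% interval of 135 to 806 that covers counting error only. The log2 fold change fitted by edgeR was 8.11 (SE 0.27). It depends on a few control reads, of which 4 were in replicate 1, and was 8.99 without control replicate 1.

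The sequence around the start of Nid1 is shown because this gene had by far the widest gap of the 10, and those of Lamb1 and Lamb2 because these paralogs moved in opposite directions (described below). They were read from RefSeq on GRCm38.p6, whose promoter table held 6 of the 10 genes (Nid1, Lama2, Lama5, Lamb1, Lamb2 and Hspg2). All 3 are on the plus strand, written 5′ to 3′, at chr13:13437352-13437651 for Nid1, chr12:31265043-31265342 for Lamb1 and chr9:108479612-108479911 for Lamb2. Each window holds 250 bases before and 50 bases after the start used for it. For Nid1 that start is the first base of the gene span given above, while for Lamb1 and Lamb2 it lies inside the span. Capitals mark every match to TGGGAA, the core of the element bound by RBPJ, the DNA-binding partner of NOTCH, and to GTCTG, a core of the element bound by SMAD3, each searched on both strands (TTCCCA and CAGAC on the other strand).
Nid1: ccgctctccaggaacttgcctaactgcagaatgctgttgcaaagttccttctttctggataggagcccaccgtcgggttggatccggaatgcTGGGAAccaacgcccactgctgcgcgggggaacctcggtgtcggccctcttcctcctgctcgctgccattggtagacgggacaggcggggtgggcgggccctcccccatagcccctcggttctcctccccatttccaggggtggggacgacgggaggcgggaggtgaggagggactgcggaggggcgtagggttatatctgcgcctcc
Lamb1: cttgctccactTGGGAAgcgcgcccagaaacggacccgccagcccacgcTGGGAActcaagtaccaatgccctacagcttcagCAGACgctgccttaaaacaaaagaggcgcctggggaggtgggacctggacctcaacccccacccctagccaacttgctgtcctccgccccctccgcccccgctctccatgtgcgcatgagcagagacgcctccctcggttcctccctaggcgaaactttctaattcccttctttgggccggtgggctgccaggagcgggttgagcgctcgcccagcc
Lamb2: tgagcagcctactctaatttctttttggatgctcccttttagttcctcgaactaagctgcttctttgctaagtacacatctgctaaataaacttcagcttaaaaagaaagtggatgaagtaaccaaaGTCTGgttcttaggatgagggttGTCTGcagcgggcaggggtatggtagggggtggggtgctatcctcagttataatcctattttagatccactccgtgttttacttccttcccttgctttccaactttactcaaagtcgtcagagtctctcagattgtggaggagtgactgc

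The Nid1 window held 20 CpG dinucleotides, more than 73.5% of the 32851 windows of this length in the table, whose median was 7. That of Lamb1 held 18 and that of Lamb2 held 4. Matches to TGGGAA were found in the windows of Nid1 (1 match), Lamb1 (2 matches), Lama2 and Hspg2, and in 25.6% of all windows. Matches to GTCTG were found in those of Lamb1 (1 match), Lamb2 (2 matches), Lama2 and Lama5, and in 49.6% of all windows. A match describes the letters only, and no binding was measured here.

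Nid2, which encodes nidogen-2 and is the paralog of Nid1, did not follow it. It had 3.06, 3.33 and 4.03 CPM in control and 3.14, 3.51 and 3.28 CPM in JAG1-overexpressing libraries, with overlapping groups and a log2 fold change of −0.07 (SE 0.17). In the gene annotation Rtraf, on the opposite strand, reaches into the 3' end of Nid2, and whether the counting used strand is not given in the sources used here, so that reads of the pair may not have been told apart. Nid2 thus gave 93.9%, 100% and 97.5% of the nidogen reads in the control libraries and 8.99%, 9.55% and 11.0% in the JAG1-overexpressing libraries. Summed over both nidogens, control astrocytes had 3.57 ± 0.485 CPM and JAG1-overexpressing astrocytes had 33.9 ± 3.52 CPM (SD, n = 3 each). Nidogen reads were therefore mostly Nid2 at a low level in control cells and mostly Nid1 in JAG1-overexpressing cells.

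**Figure D2:**
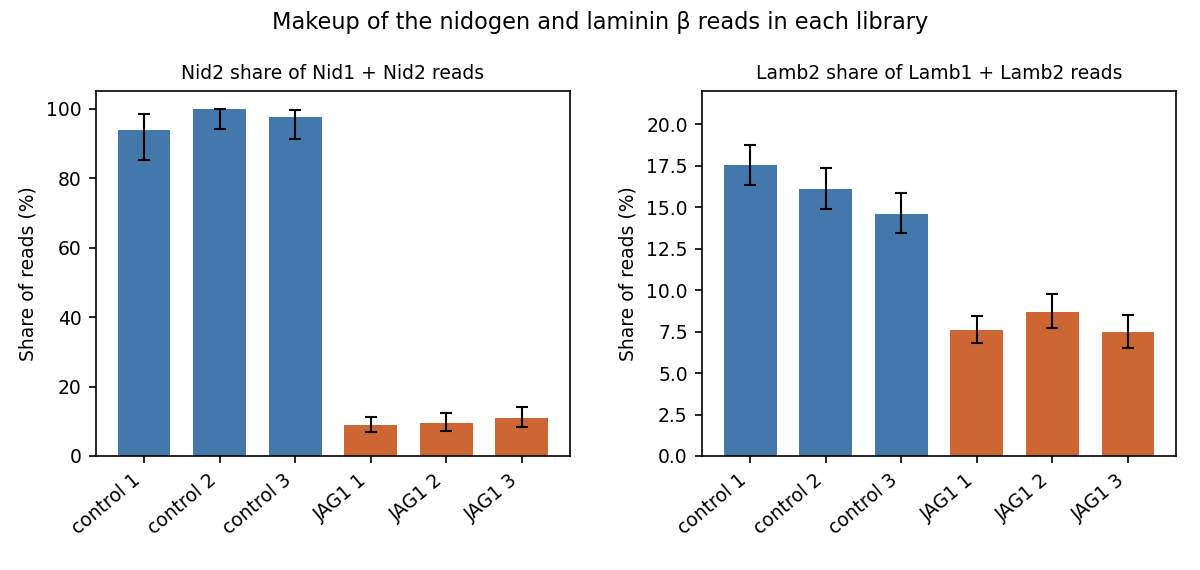
Share of Nid2 among the reads of both nidogens (left) and of Lamb2 among the reads of Lamb1 and Lamb2 (right), in percent. There is 1 bar per library, blue for control and orange for JAG1-overexpressing cells. Error bars are exact 95% binomial intervals, which cover counting error only. Both shares are lower in every JAG1-overexpressing library, with Nid2 at 8.99% to 11.0% against 93.9% or more and Lamb2 at 7.47% to 8.71% against 14.6% to 17.5%.

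The 5 tested genes whose pattern over the 6 libraries was most like that of Nid1, by the Euclidean distance of centred log2 CPM, were Tram1l1 (distance 1.09), Bhlhb9 (1.12), Frmd8 (1.13), Slc6a15 (1.20) and Gm1673 (1.31). Their read numbers were 0 to 2 per library in control and 137 to 491 per library in JAG1-overexpressing cells. They lie on chromosomes 3, X, 19, 10 and 5, none of them the chromosome of Nid1. The most abundant of them in JAG1-overexpressing cells was Frmd8, with 26.4 ± 1.65 CPM (SD, n = 3), at least 164-fold higher than in control, and its range overlapped that of Nid1.

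Among the laminin α chains, which carry the main sites for cell receptors, Lama5 was the one with more than traces of reads. Lama1 had 0 reads in all 6 libraries, Lama2 had 1 read in control replicate 3 and 2 reads in JAG1-overexpressing replicate 2, and Lama4 had 2 reads in control replicate 2, all under the limit of 3 reads. No difference in these 3 chains was detectable at this depth. Lama5 took between 99.5% and 100% of the reads of these 4 α chains in every library, with exact 95% intervals that began at 98.3% or higher. Lama3, described below with at most 2 reads in a library, is not in this sum. The chains for which astrocytes are known, α1 and α2, were thus at or near 0 in these cultured cells, as were Gfap and Aqp4. The defining endothelial markers Cdh5, Cldn5, Kdr, Tek, Tie1 and Erg had at most 1 read in a library and Pecam1 at most 4; of the list of 8, Flt1 was tested and was higher in JAG1-overexpressing cells, and the summed level of the list went from between 1.04 and 1.99 CPM to between 4.44 and 4.92 CPM.

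Lama5 had 21.6, 22.1 and 22.4 CPM in control libraries and 29.1, 31.8 and 24.7 CPM in JAG1-overexpressing libraries. The groups did not overlap, and the level was 1.29 times as high in JAG1-overexpressing cells, a log2 fold change of 0.37 (SE 0.10). The spread was wider in the JAG1-overexpressing group, with an SD of 3.60 against 0.382 CPM in control.

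The γ1 chain, which is shared by most laminin trimers and holds the binding site for nidogen, moved by a like amount. Lamc1 had 47.4, 46.7 and 54.3 CPM in control and 66.4, 63.2 and 63.7 CPM in JAG1-overexpressing libraries, a log2 fold change of 0.38 (SE 0.07). The lowest JAG1-overexpressing library was above the highest control library. The number of Lama5 reads per Lamc1 read was 0.447 ± 0.0314 (SD, n = 3) in control and 0.442 ± 0.0580 (SD, n = 3) in JAG1-overexpressing cells, a difference smaller than the spread between libraries.

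The β chains differed in direction. Lamb1, the most abundant of the 10 genes in both groups, had 163, 155 and 147 CPM in control and 194, 182 and 165 CPM in JAG1-overexpressing libraries, a log2 fold change of 0.22 (SE 0.07). The lowest JAG1-overexpressing library was only just above the highest control library. Lamb2, which encodes the β2 chain known from the neuromuscular junction, the kidney glomerulus and vessels, had 34.6, 29.8 and 25.1 CPM in control and 16.0, 17.4 and 13.3 CPM in JAG1-overexpressing libraries. These groups were clearly apart, with a log2 fold change of −0.94 (SE 0.13), so that the control level was 1.92 times as high.

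Lamb2 accordingly gave 16.1% ± 1.46 (SD, n = 3) of the Lamb1 and Lamb2 reads in control and 7.93% ± 0.683 (SD, n = 3) in JAG1-overexpressing astrocytes. For each Lamb2 read there were 5.25 ± 0.569 Lamb1 reads (SD, n = 3) in control and 11.7 ± 1.04 (SD, n = 3) in JAG1-overexpressing cells. Relative to Lamc1, Lamb2 went from 0.611 ± 0.136 to 0.242 ± 0.0333 reads (SD, n = 3), without overlap. The ratio of Lamb1 to Lamc1 was between 2.70 and 3.44 in control and between 2.59 and 2.93 in JAG1-overexpressing libraries, and overlapped. Relative to the γ1 chain, reads of the α5 and β1 chains thus overlapped between the groups, while those of the β2 chain did not. The mean for Lamb1 was 3.16 in control and 2.80 in JAG1-overexpressing cells, and whether these proportions were equal was not tested. Summed over the 7 laminin chains, control cells had 256 ± 9.18 CPM and JAG1-overexpressing cells had 289 ± 20.3 CPM (SD, n = 3 each), and the groups were barely apart, with 266.45 CPM in the highest control library and 266.53 CPM in the lowest JAG1-overexpressing library.

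**Figure D3:**
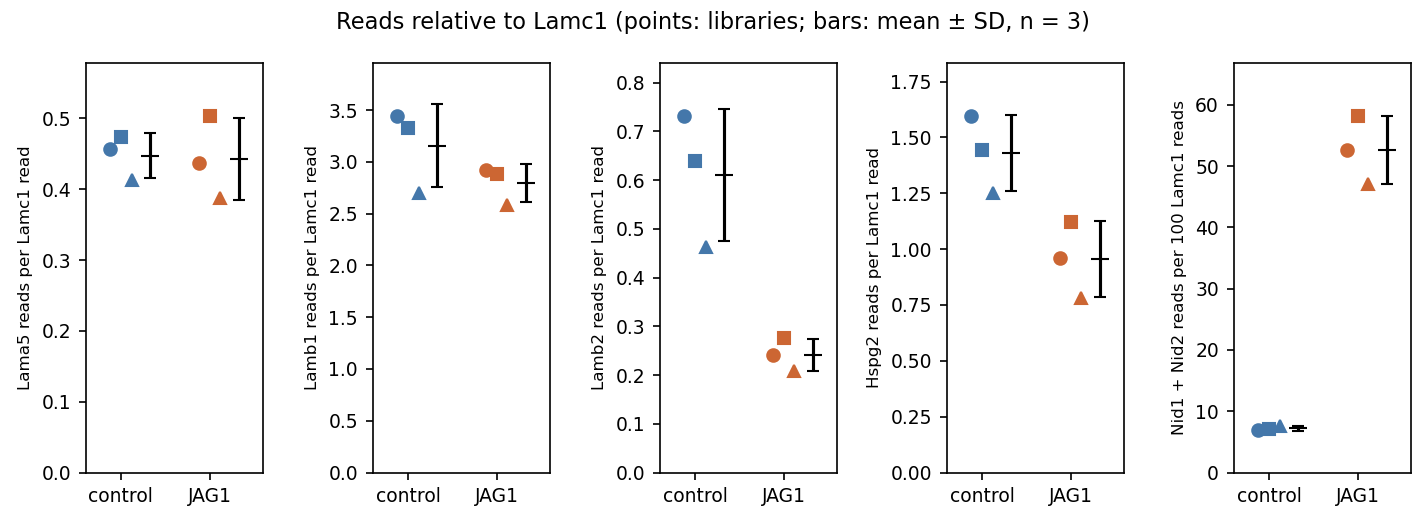
Reads of Lama5, Lamb1, Lamb2 and Hspg2 per Lamc1 read, and of both nidogens per 100 Lamc1 reads, in control (blue) and JAG1-overexpressing (orange) libraries; circles, squares and triangles are replicates 1, 2 and 3, and bars are the mean ± SD. Lama5 and Lamb1 overlap between the groups, Lamb2 and Hspg2 are lower in all 3 JAG1-overexpressing libraries, and nidogen goes from 7.21 to 52.6 reads per 100 Lamc1 reads.

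Nidogen and laminin γ1 bind each other, and their reads were therefore also compared within each library. Reads of both nidogens came to 6.88, 7.13 and 7.61 per 100 Lamc1 reads in control and to 52.6, 58.1 and 47.0 per 100 in JAG1-overexpressing libraries. The control libraries were close together, and every JAG1-overexpressing library was well above them.

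Hspg2, whose product perlecan is a large heparan sulfate proteoglycan that binds laminin, nidogen and growth factors, had 75.5, 67.4 and 68.0 CPM in control and 63.8, 70.9 and 49.8 CPM in JAG1-overexpressing libraries. The groups overlapped, with a log2 fold change of −0.19 (SE 0.11). JAG1-overexpressing replicate 3 was the lowest library, and without it the log2 fold change was −0.06. Per Lamc1 read, however, Hspg2 had 1.43 ± 0.171 reads (SD, n = 3) in control and 0.954 ± 0.170 reads (SD, n = 3) in JAG1-overexpressing cells, and these ratios did not overlap.

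In control cells the order of levels was Lamb1, Hspg2, Lamc1, Lamb2, Lama5 and Nid2, and no neighbours in that order overlapped, followed by Nid1, Lama4, Lama2 and Lama1, all at or near 0. In JAG1-overexpressing cells the order was Lamb1, Lamc1, Hspg2, Nid1, Lama5, Lamb2 and Nid2. There the ranges of Lamc1 and Hspg2 overlapped, as did those of Nid1 and Lama5. Nid1 thus stood below Nid2 in control and at about the level of Lama5 in JAG1-overexpressing cells, on the CPM scale of 3'-end reads.

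Other genes of the basement membrane were taken from 6 lists of 81 genes, of which 80 had a row and 56 were tested. JAG1-overexpressing astrocytes had higher levels of 14 of these (25.0%) and lower levels of 22 (39.3%), with a median log2 fold change of −0.06, against 27.4% higher and 27.7% lower among all tested genes, whose median was 0.00386. Setting the 4 genes that had no more than 3 reads in any JAG1-overexpressing library at their limit left this median unmoved. It could not have moved, because their fitted values and their limits all lie far below it. The lists were chosen with earlier results of these data known, so nothing is read from these shares. The counts of single lists below stand beside the same 27.4% and 27.7%, and nothing is read from them either. Adjusted p-values of single genes below are from edgeR's quasi-likelihood test over all tested genes, and carry the same limit.

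**Figure D4:**
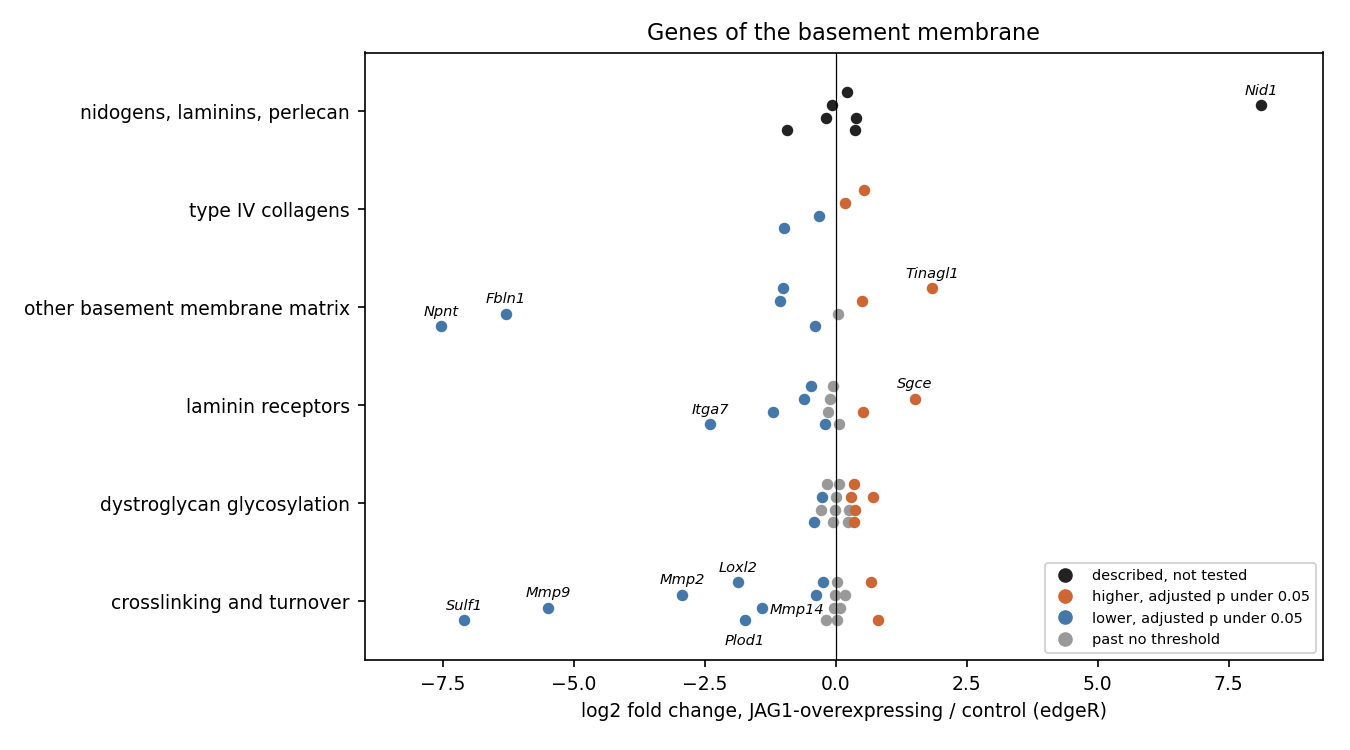
log2 fold change (JAG1-overexpressing over control, edgeR) of the tested genes in 5 of the lists, 1 point per gene, spread vertically for visibility; black points are the 7 chosen genes that passed the filter, orange and blue points are higher and lower at an adjusted p under 0.05, grey points are not past it. Nid1 lies at 8.11, and the lists of matrix genes and of crosslinking and turnover reach below −5 with Npnt, Fbln1, Sulf1 and Mmp9, whose fitted values depend on the prior count because their JAG1-overexpressing libraries had 0 to 2 reads.

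Among other laminin chains, Lama3 had at most 2 reads in a library and Lamb3 at most 11. Lamc3 had 1, 0 and 2 reads in control and 7, 6 and 6 reads in JAG1-overexpressing libraries, at least 2.33-fold higher. None of these 3 chains passed the filter on low counts, and they were not tested.

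The genes of type IV collagen chains lie in pairs, head to head, that share a promoter region, and in both detected pairs the members moved in opposite directions. Col4a1 rose by 0.18 on the log2 scale (SE 0.06, adjusted p = 0.0196), which was not past the threshold without control replicate 2 (adjusted p = 0.0935) or without JAG1-overexpressing replicate 1 (adjusted p = 0.0922). Col4a2 fell by 0.33 on the log2 scale (SE 0.07, adjusted p = 0.00288). Col4a5 rose, with a log2 fold change of 0.54 (adjusted p = 0.000209), and Col4a6 fell by 0.99 on the log2 scale (adjusted p = 6.14e-05). Col4a3 and Col4a4 were not tested, with at most 17 reads in a library.

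Of 8 tested genes among the other matrix components, 2 were higher and 5 lower. Tinagl1, which encodes a secreted matrix protein that binds laminin, rose from 48.2 ± 2.79 to 172 ± 12.2 CPM (SD, n = 3), with log2 fold change 1.84 (SE 0.07, adjusted p = 3.42e-09). Npnt, the ligand nephronectin of integrin α8β1, had 1.28 ± 0.229 CPM (SD, n = 3) in control and 0 reads in JAG1-overexpressing libraries, at least 6.19-fold lower. Fbln1, which encodes a fibulin that binds nidogen and laminin, was at least 10.1-fold lower. Agrn, a proteoglycan that links laminin to dystroglycan and was named after its values were seen, fell by 1.06 on the log2 scale (SE 0.11, adjusted p = 7.84e-06).

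Of 11 tested laminin receptors and their partners, 2 were higher and 5 lower. Itga6, a laminin-binding integrin subunit, fell from 221 ± 26.0 to 96.0 ± 5.72 CPM (SD, n = 3), with log2 fold change −1.20 (SE 0.08, adjusted p = 4.08e-07). Itga7, another laminin-binding subunit, fell by 2.40 on the log2 scale (adjusted p = 1.94e-05). Sgce, which encodes ε-sarcoglycan, rose by 1.51 on the log2 scale (adjusted p = 2.24e-05). Dag1, the gene of dystroglycan, was also named after its values were seen and rose from 85.3 ± 2.48 to 122 ± 7.68 CPM (SD, n = 3), with log2 fold change 0.52 (adjusted p = 2.87e-05).

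Dystroglycan binds laminin through a sugar chain that a series of enzymes builds, and of 15 tested genes of this list 5 were higher and 2 lower. B4gat1, an enzyme that primes this chain, rose by 0.71 on the log2 scale (SE 0.08, adjusted p = 2.63e-05). Dpm1, a subunit of the synthase for the mannose donor, fell by 0.43 on the log2 scale (adjusted p = 0.000707).

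Of 17 tested genes of crosslinking and turnover, 2 were higher and 8 lower. Mmp2, a protease that cleaves type IV collagen, fell from 4.11 ± 0.794 to 0.537 ± 0.136 CPM (SD, n = 3), with log2 fold change −2.94 (SE 0.28, adjusted p = 4.47e-06). Mmp9, which cleaves the same collagen, was at least 14.3-fold lower. Sulf1, an enzyme that removes sulfate groups from heparan sulfate, had 78, 67 and 64 reads in control and 1, 0 and 0 reads in JAG1-overexpressing libraries, at least 17.4-fold lower.

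Markers of other cell types were measured in the same libraries, in which 27.4% of all tested genes were higher and 27.7% lower. Of 12 fibroblast and mural cell markers, 7 were tested, of which 1 was higher (Col1a2, from 3.35 ± 0.528 to 50.7 ± 6.20 CPM, SD, n = 3) and 4 were lower. The summed level of the list went from between 635 and 644 CPM in control to between 263 and 305 CPM in JAG1-overexpressing libraries. Much of that fall was in Acta2, which went from 310.1 ± 6.25 to 39.5 ± 2.49 CPM (SD, n = 3), and Lum, Cspg4, Rgs5 and Kcnj8 had 0 reads in all 6 libraries. Of 6 microglia and macrophage markers, 2 were tested and 1 was higher (Cx3cr1), with summed levels between 3.65 and 3.92 CPM in control and between 3.46 and 4.33 CPM in JAG1-overexpressing libraries, which overlapped. Of 6 oligodendrocyte lineage markers none was past the threshold, with 1 tested and Mog, Olig1 and Sox10 at 0 reads; the list summed to at most 1.19 CPM. Of 6 neuron markers, Map2 was tested and was higher, with the list at 23.9 to 26.0 CPM in control and 50.6 to 52.6 CPM in JAG1-overexpressing libraries, and Snap25, Syt1 and Nefm at 0 reads. The part of these markers in the differences of the nidogen and laminin genes was not tested.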

How the data were processed

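RNA of 3 control and 3 JAG1-overexpressing astrocyte samples was made into QuantSeq 3' mRNA libraries. The authors deposited, per library, raw read counts per gene symbol without normalization, and a log2 value normalized by a method that is not given in the sources used here. The submitters' processing notes name Bowtie2, bedtools, edgeR, GRCm38 and mm10, with no role or version. Counts (14341634 to 20489062 per library) were used for all results and the log2 values for an alternative only. In R 4.3.3, edgeR 4.0.16 was run with filterByExpr (minimum count 10), TMM normalization and the quasi-likelihood test on all 6 libraries, with p-values adjusted by the Benjamini-Hochberg method over 11712 genes at 0.05. Standard errors were derived from the F statistic. The code was tested on simulated data. Shares have exact (Clopper-Pearson) intervals. Folds against a group at or under 3 reads in every library are lower bounds, taken against the highest 3-read level of that group's libraries. Where a symbol had several rows, the row with most reads was used. Alternatives used DESeq2 1.42.0 and limma 3.58.1, among others. The named genes were the 10 members, Jag1, astrocyte markers, all other laminin and type IV collagen chains, the 3 called genes with the largest absolute log2 fold change in each other list, and the 5 nearest to Nid1; other marker genes were named as the defining, tested or undetected ones of their list. Members and lists were chosen with earlier results of these data known. Some genes that this rule names are not reported here. A protein sequence table was not used here.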

Additional observations from a re-analysis of the deposited data

How the results depend on the processing

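When single libraries were left out, the number of higher genes of the 6 basement membrane lists ran from 12 to 15 and of lower genes from 18 to 22, and over all tested genes from 2724 to 3256 and from 2792 to 3344. DESeq2, limma-voom, scaling by library size, upper-quartile scaling, a run without the filter and a filter on a mean of 10 counts kept these counts within 1.5 times, and no called gene of the lists changed its direction. For the 7 tested members, the log2 fold changes under other settings moved by less than 1 SD between replicates, with 2 exceptions. Both were of Nid1, without control replicate 1 (8.99) and with a prior count of 2 (7.17). With the authors' normalized log2 values that of Nid1 was 7.90. Where a library was left out this limit is loose, because leaving out 1 of 3 libraries seldom moves a group mean by 1 SD. Lamb2 stayed between −1.06 and −0.82, Lamc1 between 0.34 and 0.45, Lama5 between 0.29 and 0.47 and Lamb1 between 0.17 and 0.28 under all settings, and Nid2 between −0.16 and 0.04. With any 1 library left out, the mean shares of Nid2 and Lamb2 moved by less than 1 SD. That holds for any 3 values, so it says nothing about how stable the shares are.

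A replicate block gave 3380 higher and 3331 lower genes in all and 15 higher and 22 lower of the lists. Same-numbered control and JAG1-overexpressing libraries had correlations of their deviations across genes of 0.148, 0.0614 and 0.119. The other combinations ran from −0.144 to 0.0109, so that each library correlated best with its own number. Whether same-numbered libraries were handled together is not given in the sources used here. The main fit did not pair them, and the replicate block did. Under the block, Pomt2 passed the threshold (adjusted p = 0.0444, against 0.0548 without it).

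The members at 0 to 2 reads, Lama1, Lama2 and Lama4, are limited by depth, as is the control level of Nid1.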

Other observations

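In the authors' normalized log2 column, rows with 0 raw reads had a value above 0 in JAG1-overexpressing replicate 2 (3776 rows) and replicate 3 (3891 rows), and in none of the other 4 libraries. Among them a gene without reads therefore does not have the same normalized value in each library of its group.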
